A study of Homo sapiens with 6 samples.

Results

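Caspases are proteases that cut proteins after aspartate, and 1 branch of them serves inflammation while another serves cell death. The 8 genes described here cover both: the inflammatory caspases CASP1, CASP4 and CASP5, their partners CARD16 and PYCARD, and the initiator caspases of apoptosis CASP8, CASP9 and CASP10. All 8 were measured, by 21 of the 54613 probe sets on the array, as 8 of 19775 genes in all. These genes were selected on the difference between the 2 groups described here, so their values are a description and carry no test. A probe set is a group of short probes whose signals are summarised to 1 value, and every probe set whose annotation names 1 of these genes alone was taken, whatever its value.

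Gene expression was measured on Affymetrix human genome arrays in LP-1, a human multiple myeloma line, and in LP-1/Cfz, a derivative of it that was grown in rising concentrations of the proteasome inhibitor carfilzomib until it withstood 12 nM. Each group has 3 arrays. The LP-1/Cfz cells were kept without drug for 1 week before RNA was taken, and the LP-1 cells were not selected. The labels give medium with 4% serum for both groups. LP-1/Cfz is a single derived line, so an effect of resistance and a trait of this derivative cannot be told apart, and no source used here says whether it is a clone. No source says either that the replicates were separate cultures, so a p-value here weighs only how far these arrays differ within a group, and that spread may be technical. RNA came from whole cultures, in which fewer cells of a type and less RNA per cell cannot be told apart.

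CASP1 (caspase-1) is switched on when a sensor protein gathers the adaptor ASC, the product of PYCARD, into a large complex called the inflammasome. It then cuts the precursors of interleukin-1β and interleukin-18 and opens the membrane pore former gasdermin D, a lytic form of cell death called pyroptosis, while caspase-4 and caspase-5 bind bacterial lipopolysaccharide inside the cell and act on gasdermin D directly. Caspase-8 and caspase-10 start apoptosis below death receptors such as FAS, and caspase-9 starts it on the apoptosome, which forms when mitochondria release cytochrome c. Inflammasomes are best known from macrophages, and myeloma is a cancer of plasma cells.

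CASP4 and CASP5 are closely related genes that lie near each other on chromosome 11. CASP4 had 1 probe set that was lower in LP-1/Cfz and CASP5 had none, so their promoters are shown side by side. The other CASP4 probe set, like the only one of CASP5, differed little between groups that overlapped. The arrays do not show whether CASP5 is expressed, and a link between these promoters and the array values was not tested. Each sequence is the 250 bases before the transcription start, 5′ to 3′ on the minus strand, from RefSeq on GRCh38.p14, at chr11:104968575-104968824 for CASP4 and chr11:105023169-105023418 for CASP5. Capitals mark matches, on either strand, to TGACNNNGC (the core of the antioxidant response element), TGACTCA (the AP-1 site), GAAANNGAA (an interferon-stimulated response element) or TTCNNNGAA (a STAT site).
CASP4: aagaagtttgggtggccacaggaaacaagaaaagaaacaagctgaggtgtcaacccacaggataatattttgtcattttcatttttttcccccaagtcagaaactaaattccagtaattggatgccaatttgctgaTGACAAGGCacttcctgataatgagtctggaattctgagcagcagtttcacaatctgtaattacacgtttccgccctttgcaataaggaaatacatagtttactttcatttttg
CASP5: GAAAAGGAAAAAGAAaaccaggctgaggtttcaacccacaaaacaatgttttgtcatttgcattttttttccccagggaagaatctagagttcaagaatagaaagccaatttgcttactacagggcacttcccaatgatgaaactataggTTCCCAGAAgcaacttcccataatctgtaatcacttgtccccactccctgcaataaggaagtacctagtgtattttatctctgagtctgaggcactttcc
In a pairwise alignment, 181 of 226 aligned base pairs were identical (80.1%). The alignment had 274 columns, and those with a gap are left out of this share. The CASP4 promoter held 1 match to TGACNNNGC, starting 114 bases before the start, and none to the other 3 motifs. The CASP5 promoter held 2 matches to GAAANNGAA that overlap each other, starting 250 and 244 bases before the start, and 1 to TTCNNNGAA at 100 bases before it. Of 35116 promoters of the same length, 10.9% held TGACNNNGC, 4.20% TGACTCA, 6.88% GAAANNGAA and 6.57% TTCNNNGAA. The short ETS core GGAA, which overlaps some matches to GAAANNGAA and TTCNNNGAA, was found in 92.7% of promoters, with 7 copies in CASP4 and 8 in CASP5. A match is a run of letters and not a shown binding site. RefSeq promoters were at hand for 5 of the 8 genes; CASP8 had a TTCNNNGAA match in 1 of its 3 promoters and TGACTCA in another, and the promoters of CASP9 and PYCARD held none of the 4 capitalised motifs.

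The deposited values are log2 values, centred for each probe set on a baseline that is not stated. A difference of 1 is therefore a doubling between arrays, but a value says nothing about how strongly a gene is expressed, and values of different probe sets are not compared with each other. Differences below are LP-1/Cfz minus LP-1 on this log2 scale, with the standard error (SE) from limma over 3 against 3 arrays. A probe set or gene was called when its adjusted p, from limma after the Benjamini-Hochberg method had been applied across all probe sets or all genes, was under 0.05.

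Of the 21 probe sets, 8 were called lower in LP-1/Cfz and 0 higher, also at an unadjusted limma p under 0.05, where the counts were 10 lower and 0 higher. Over all probe sets, 6.76% were called lower and 4.25% higher. The values of the 3 LP-1/Cfz arrays did not overlap those of the 3 LP-1 arrays in 12 of the 21 probe sets, and in 30.7% of all probe sets. At the gene level, where a gene's value is the mean of its single-gene probe sets, CASP1, CASP4 and CARD16 were called lower and no member higher, against 10% of all genes called lower and 6.72% higher. Since the genes were selected on this contrast, nothing is read from these counts. The median difference of the 21 probe sets was -0.14 and their range -1.68 to 0.15, and the median over all 54613 probe sets was 0.017.

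**Figure D1:**
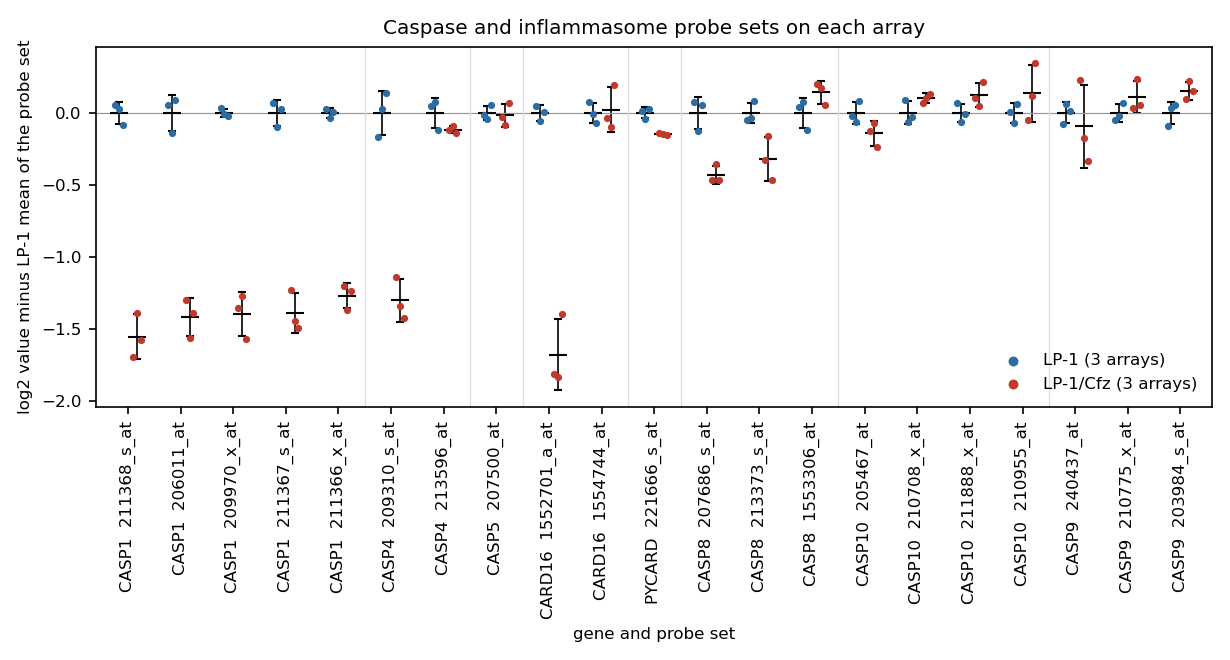
Log2 value of each array minus the LP-1 mean, for the 21 probe sets of the 8 genes. Blue points are the 3 LP-1 arrays, red points the 3 LP-1/Cfz arrays, and bars the mean and SD. All 5 probe sets of CASP1 lie more than 1 log2 unit lower in LP-1/Cfz, as does 1 probe set each of CASP4 and CARD16, while their other probe set and that of CASP5 lie near 0.

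CASP1 had the lowest gene-level difference of the members, at -1.40 (SE 0.0527), a level 2.64-fold lower in LP-1/Cfz. The gene-level values were 0.20, 0.099 and 0.15 on the LP-1 arrays and -1.20, -1.25 and -1.30 on the LP-1/Cfz arrays. The groups lay far apart, with each triplicate spread over a small part of the gap. In rank this difference was number 78 from the lowest of 19775 genes.

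The 5 CASP1 probe sets gave like differences. The probe set 211368_s_at read 0.064, 0.036 and -0.078 on the LP-1 arrays and -1.68, -1.38 and -1.57 on the LP-1/Cfz arrays, a difference of -1.55 (SE 0.0897). The probe set 206011_at read 0.56, 0.37 and 0.60 against -0.79, -1.05 and -0.88, a difference of -1.42 (SE 0.0925). The remaining probe sets, 209970_x_at, 211367_s_at and 211366_x_at, differed by -1.40, -1.39 and -1.27. In all 5 the highest LP-1/Cfz array lay below the lowest LP-1 array, and the differences spanned 0.28. Over the 10523 genes with several single-gene probe sets, the median span was 0.17.

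CASP4 was measured by 2 probe sets that disagree. The probe set 209310_s_at read -0.54, -0.35 and -0.24 on the LP-1 arrays and -1.51, -1.71 and -1.80 on the LP-1/Cfz arrays, a difference of -1.30 (SE 0.104) or 2.46-fold lower. The groups did not overlap. The other, 213596_at, read -0.054, -0.029 and -0.22 against -0.22, -0.19 and -0.24, a difference of -0.12 (SE 0.0709) with overlapping groups. The gene-level difference of -0.71 (SE 0.0589) is the mean of these unlike values. Their span of 1.18 is wide, since 148 of the 10523 genes with several probe sets (1.41%) spanned more than 1.

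CASP5, with 1 probe set, read 0.027, -0.00059 and 0.095 on the LP-1 arrays and 0.011, -0.046 and 0.11 on the LP-1/Cfz arrays. The groups overlapped throughout, and the difference was -0.015 (SE 0.0674). Of the 8 probe sets of the 3 inflammatory caspases, 6 were called lower (6.76% of all probe sets), and their median difference was -1.34. CASP1 supplies 5 of these 8, and the gene-level differences were -1.40, -0.71 and -0.015 for CASP1, CASP4 and CASP5.

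CARD16, also known as COP, is a short protein that resembles the recruitment domain of caspase-1 and binds it. Its 2 probe sets disagree as well. The probe set 1552701_a_at read -0.30, -0.40 and -0.34 on the LP-1 arrays and -2.16, -2.18 and -1.74 on the LP-1/Cfz arrays, a difference of -1.68 (SE 0.117) and, at 3.20-fold lower, the largest of the 21. The probe set 1554744_at read 0.089, 0.0016 and -0.055 against -0.022, -0.084 and 0.21, a difference of 0.022 (SE 0.0894) with overlapping groups. The span of 1.70 was the widest of the members, and the gene-level difference was -0.83 (SE 0.0964).

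The sequences of CARD16 and CASP1 are alike enough that 1 further probe set, 1552703_s_at, is annotated to both and was left out of the 21. It read -0.39, -0.18 and -0.35 on the LP-1 arrays and -2.04, -1.93 and -2.08 on the LP-1/Cfz arrays, a difference of -1.71 (SE 0.0791) or 3.27-fold lower. Probes for closely related genes can bind the transcripts of both, so the low CARD16 and CASP1 signals are uncertain as to which gene they come from.

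PYCARD, the gene for the adaptor ASC, differed little. Its single probe set read 0.74, 0.68 and 0.75 on the LP-1 arrays and 0.58, 0.58 and 0.57 on the LP-1/Cfz arrays. The groups did not overlap because the arrays within each group lay close together (SD 0.038 in LP-1 and 0.0059 in LP-1/Cfz, n = 3). The difference was -0.15 (SE 0.0577), or 1.11-fold lower. It was not called, though it was lower at an unadjusted limma p under 0.05.

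CASP8 has 3 probe sets, which do not share a direction. The probe set 207686_s_at read 0.21, 0.0071 and 0.19 on the LP-1 arrays and -0.33, -0.22 and -0.33 on the LP-1/Cfz arrays, a difference of -0.43 (SE 0.0765) that was called. Its call was lost without LP-1 replicate 3, where the difference was -0.40, and with a minimum fold change of 1.2. The probe set 213373_s_at read 0.048, 0.060 and 0.18 against -0.23, -0.066 and -0.37, a difference of -0.32 (SE 0.0890) that was not called although the groups did not overlap; it was called without LP-1/Cfz replicate 2, at -0.40, with array weights, at -0.30, and after quantile normalization, at -0.31. For the third, 1553306_at, the groups overlapped and the difference was 0.14 (SE 0.0768). The gene-level difference of CASP8 was -0.20 (SE 0.0587), with no overlap between groups, and was not called.

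The other 2 initiators stayed within small differences. The 4 probe sets of CASP10 ranged from -0.14 to 0.14, the groups overlapped in 3 of them, and the gene-level difference was 0.055 (SE 0.0550). The 3 probe sets of CASP9 ranged from -0.093 to 0.15, with a gene-level difference of 0.057 (SE 0.0627). The CASP9 probe set 240437_at was the least even of the 21, with 0.52, 0.12 and -0.044 on the LP-1/Cfz arrays against 0.21, 0.36 and 0.30 on the LP-1 arrays. Of the 10 probe sets of the 3 apoptotic initiators, 1 was called lower, near the share over all probe sets (6.76%), and their median difference was 0.11.

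LP-1/Cfz replicate 3 stood apart from the other arrays, with an interquartile range of its values of 0.338 against 0.23 to 0.264, and its part in the results was measured by leaving it out. Without it the gene-level differences were -1.38 for CASP1, -0.67 for CASP4, -0.94 for CARD16 and -0.14 for PYCARD, and 8 member probe sets were again called lower. The values of the plasma cell marker list, summed for each array, were 3.45 to 3.94 in LP-1 and 1.75 to 2.48 in LP-1/Cfz. The median difference of these 10 markers was 0.16, the other way from their sum. Among them, 3 rose (MZB1, SDC1 and TNFRSF17) and 2 fell; SLAMF7 fell by 2.17 and CD38 fell by 1.07, and 5 were higher at an unadjusted limma p under 0.05. Of the 8 measured myeloid markers, genes of the cells in which inflammasomes are best known, limma called 0, with 1 lower at an unadjusted p under 0.05, and their summed value ran from 0.103 to 0.328 in LP-1 and -0.659 to 0.813 in LP-1/Cfz. In the T and NK cell list of 10 markers, 1 rose (CD8A) and 2 fell (NCAM1 and GNLY). Its sums were 0.0055 to 0.452 in LP-1 and -0.65 to 1.17 in LP-1/Cfz. In the stromal cell list of 10 markers, 2 fell (VIM and ACTA2), with sums of 0.269 to 0.497 and -0.335 to 0.673. No single probe set of CD8A or GNLY was called, while NCAM1 had 3 of 7 called lower, VIM 2 of 2 and ACTA2 1 of 3. The centred values hold no level, so the presence of any marker could not be checked. The part of these marker differences in the caspase values was not tested.

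The inflammatory caspases with CARD16, and the pair CASP10 and CASP8, sit in gene clusters, so these members can be set against the genes beside them. On chromosome 11 the order is CASP4, CASP5, CASP1, CARD16. Of the 10 genes on either side in the RefSeq order on GRCh38.p14, 6 of 20 were measured and limma called 0 of them, with 1 at an unadjusted p under 0.05. Their differences ran from -0.15 (PDGFD) to 0.18 (GRIA4). They include the caspase-12 gene CASP12, at 0.047 (SE 0.0855), and CARD18, a further relative of the caspase-1 recruitment domain, at -0.077 (SE 0.133). Within the cluster, CASP5 lies between CASP4 and CASP1 and had a difference near 0 where the single-gene means of both were called lower. For CASP4 only 1 of its 2 probe sets was called lower.

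On chromosome 2, where CASP10 and CASP8 lie with no measured gene between them, 7 of the 20 neighbouring genes were measured. Limma called 1 of them lower and 2 higher, where 10% of all genes were called lower and 6.72% higher. By limma, with Benjamini-Hochberg adjusted p over all genes, TRAK2 fell by 0.39 (SE 0.0575, adjusted p = 0.00313), while CFLAR-AS1 rose by 0.23 (SE 0.0644, adjusted p = 0.0483) and STRADB by 0.20 (SE 0.0568, adjusted p = 0.0485). Both rises passed the threshold of 0.05 narrowly, and their calls in the fits that left out an array are not given here. CFLAR itself, the gene for the caspase-8 brake FLIP, lies in the same stretch.

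**Figure D2:**
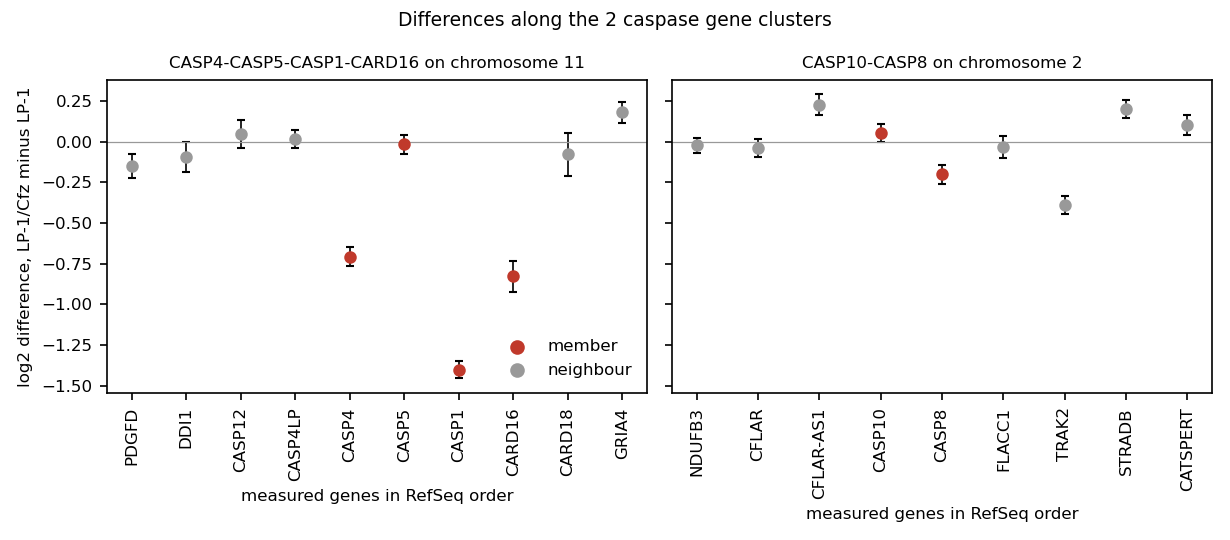
Gene-level log2 difference, LP-1/Cfz minus LP-1, of the measured genes along both clusters in RefSeq order, with the SE as bars. Members are red and neighbours grey. On chromosome 11 the neighbours lie between -0.15 and 0.18, with CASP1 at -1.40; on chromosome 2 CASP8 lies at -0.20 and CASP10 at 0.055.

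The other genes of these pathways were read from 8 lists, of which 101 of 114 genes were measured. Limma called 22 lower, 4 higher and 75 neither, where 10% of all genes were called lower and 6.72% higher, with a median difference of -0.014 against 0.017 over all genes. Of 16 sensor and assembly genes, 4 fell and 0 rose (1 was higher at an unadjusted limma p under 0.05), with a list median of 0.021.

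AIM2, a sensor of DNA in the cytosol, read -0.30, -0.50 and -0.54 on the LP-1 arrays and -1.19, -1.50 and -1.46 on the LP-1/Cfz arrays. The groups did not overlap, and AIM2 fell by 0.94 (SE 0.0985, limma adjusted p = 0.000606). The related DNA sensor IFI16 fell by 0.56 (SE 0.0713, limma adjusted p = 0.00151), on all 3 of its probe sets. CARD8, a sensor that recruits caspase-1 without ASC, fell by 0.39 (SE 0.0589, limma adjusted p = 0.00339), and NAIP, a sensor of bacterial flagellin, by 0.38 (SE 0.0549, limma adjusted p = 0.00275). CARD8 was called lower on 2 of its 4 probe sets and NAIP on 2 of 3. NLRP3, the best studied inflammasome sensor, differed by 0.038 (SE 0.0663, limma adjusted p = 0.75).

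Among 20 measured genes of the interleukin-1 family and the membrane pores, 2 rose and 0 fell (0 lower also at an unadjusted limma p under 0.05), with a median of 0.020. GSDMC, a gasdermin, rose by 0.63 (SE 0.0736, limma adjusted p = 0.00104). SIGIRR, a receptor that dampens interleukin-1 signals, rose by 0.47 (SE 0.0884, limma adjusted p = 0.00951). Only 1 of its 2 probe sets was called. The substrates of caspase-1 did not pass: IL1B differed by 0.11 (SE 0.0908, limma adjusted p = 0.493), IL18 by 0.027 (SE 0.106, limma adjusted p = 0.896) and GSDMD by -0.28 (SE 0.129, limma adjusted p = 0.192). GSDMD was called, at -0.43, without LP-1/Cfz replicate 1. The 5 measured brakes on inflammatory caspases and the 6 measured guanylate-binding proteins, which expose bacterial lipopolysaccharide to caspase-4, had 0 calls by limma and 0 at an unadjusted p under 0.05, with medians of 0.059 and 0.045.

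**Figure D3:**
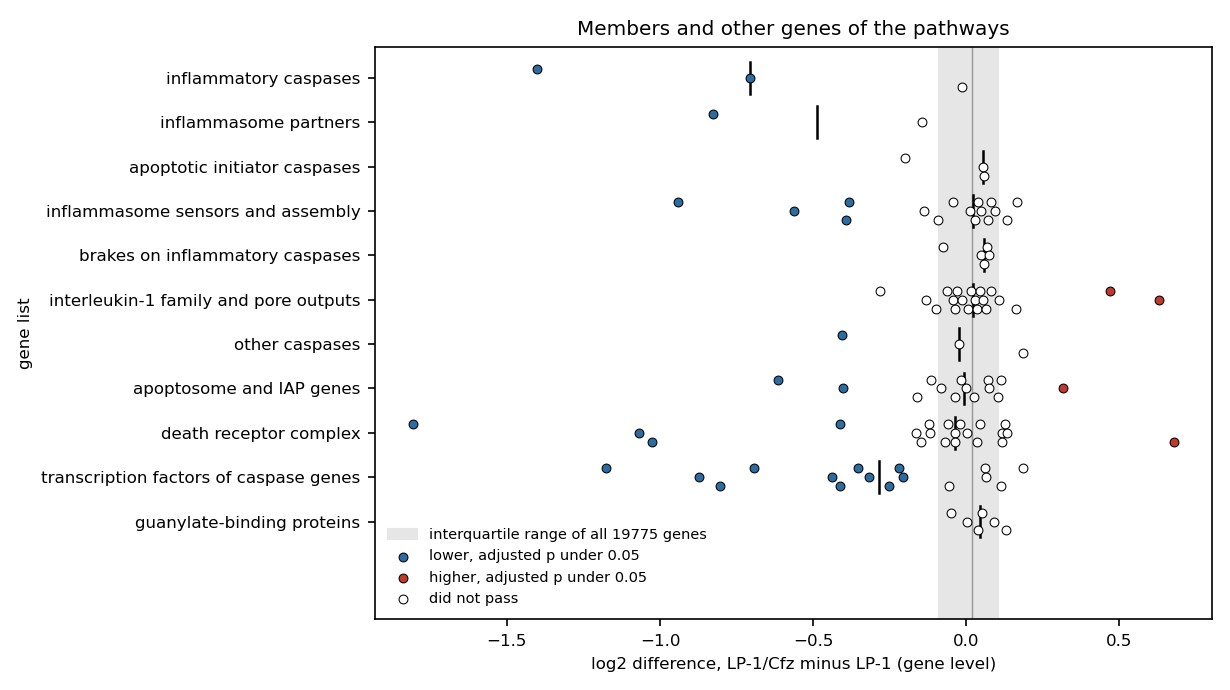
Gene-level log2 differences, LP-1/Cfz minus LP-1, of the 8 members by role (top) and of the 8 pathway lists. Each point is a gene, blue where called lower, red where called higher and white where neither, with a black line at each list's median. The grey band is the interquartile range of all 19775 genes, -0.089 to 0.10. The list of transcription factors has its median at -0.28, left of the band, and the medians of the other 7 lists lie inside it.

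On the apoptotic side, the death receptor FAS had the largest difference. Of 21 measured genes of the death receptor complexes, 4 fell and 1 rose, with a median of -0.038. FAS, the receptor that recruits caspase-8, read -0.0087, -0.056 and -0.029 on the LP-1 arrays and -1.81, -1.76 and -1.95 on the LP-1/Cfz arrays. It fell by 1.81 (SE 0.0608, limma adjusted p = 1.73e-06), a level 3.50-fold lower, and all 5 of its probe sets were called. MLKL, which breaks the membrane in necroptosis when caspase-8 is inactive, read 1.06, 0.98 and 1.03 against 0.011, -0.011 and -0.14 and fell by 1.07 (SE 0.0575, limma adjusted p = 2.13e-05). The death receptor gene TNFRSF21 fell by 1.02 (SE 0.0604, limma adjusted p = 3.17e-05) and the NF-κB inhibitor TNFAIP3 by 0.41 (SE 0.0654, limma adjusted p = 0.0044).

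The gene that rose in this list was TNFRSF1A, for the main receptor of tumour necrosis factor. It read -0.50, -0.50 and -0.48 on the LP-1 arrays and 0.13, 0.26 and 0.16 on the LP-1/Cfz arrays, a rise of 0.68 (SE 0.0528, limma adjusted p = 0.000135). FADD and CFLAR, direct partners of caspase-8, had differences near 0. The adaptor FADD differed by -0.038 (SE 0.0489, limma adjusted p = 0.657). CFLAR differed by -0.036 (SE 0.0553, limma adjusted p = 0.717), with none of its 14 probe sets called.

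Of 14 measured genes of the apoptosome and the IAP proteins, which hold caspases in check, 2 fell and 1 rose, with a median of -0.0086. XAF1, an antagonist of the inhibitor XIAP, fell by 0.61 (SE 0.0938, limma adjusted p = 0.00361). It was called lower on 2 of its 3 probe sets. DIABLO, the mitochondrial protein that displaces IAP proteins from caspases, fell by 0.40 (SE 0.0461, limma adjusted p = 0.000944). AIFM1, another mitochondrial protein linked to cell death, rose by 0.31 (SE 0.0571, limma adjusted p = 0.00797). APAF1, the scaffold on which caspase-9 is activated, differed by 0.071 (SE 0.0608, limma adjusted p = 0.489) and XIAP by 0.10 (SE 0.0556, limma adjusted p = 0.27). After quantile normalization XIAP was called higher, at 0.18 (limma adjusted p = 0.0488). Of 3 other measured caspases, the executioner CASP6 fell by 0.41 (SE 0.0737, limma adjusted p = 0.00797), with 1 of its 2 probe sets called lower. The gene-level call of CASP6 was lost when its most variable probe set was taken in place of the mean.

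The last list holds transcription factors for which control of caspase genes is described, and 11 of its 16 measured genes fell and 0 rose by limma (1 was higher at an unadjusted p under 0.05), against 10% of all genes lower and 6.72% higher. Like the other lists it was chosen with earlier results of these data known, so its count is no independent evidence of its direction. Its median was -0.28. The interferon regulatory factor IRF7 fell by 1.18 (SE 0.0916, limma adjusted p = 0.000135), from 0.36, 0.24 and 0.46 on the LP-1 arrays to -0.64, -0.94 and -0.89 on the LP-1/Cfz arrays. RELB, an NF-κB subunit, fell by 0.87 (SE 0.0794, limma adjusted p = 0.000304) and ETS1, an ETS family factor, by 0.81 (SE 0.0820, limma adjusted p = 0.00053). IRF2 fell by 0.69 (SE 0.0856, limma adjusted p = 0.00134) and IRF1, an activator of interferon response genes, by 0.44 (SE 0.0543, limma adjusted p = 0.00134). After quantile normalization IRF1 was at -0.20 and still called. ETS1 was called lower on 2 of its 3 probe sets. The 6 other factors that fell ranged from -0.41 to -0.21 and include the NF-κB genes NFKB1, NFKB2 and RELA. None of these 6 was called with a minimum fold change of 1.2. At least 1 of them lost its call in each fit that left out an array.

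**Figure D4:**
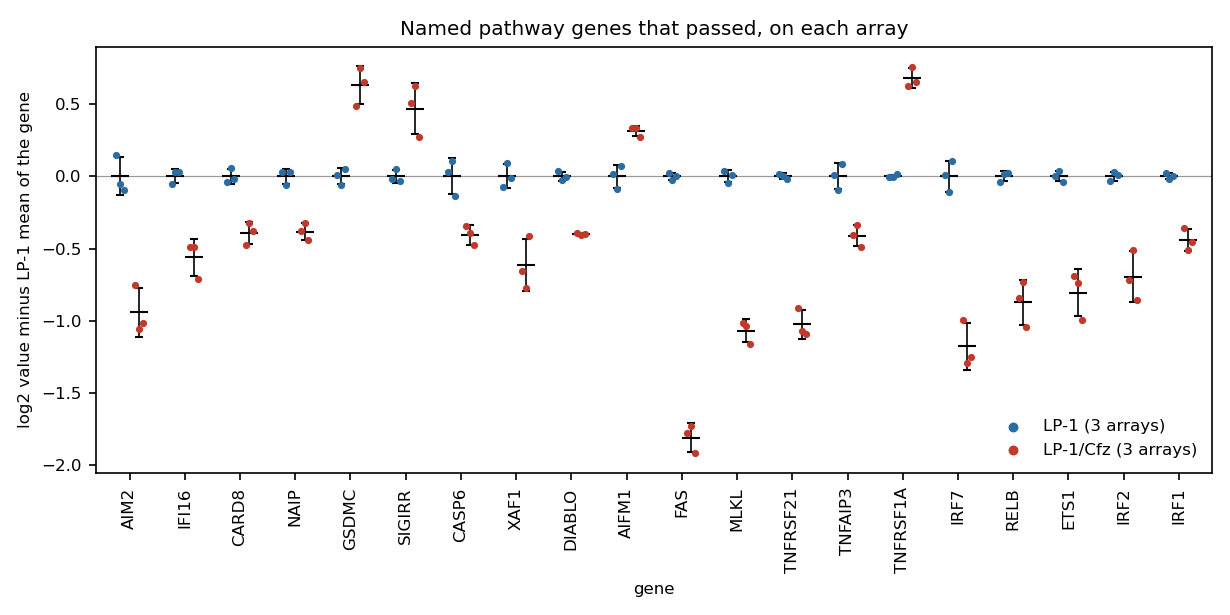
Gene-level log2 value of each array minus the LP-1 mean, for the 20 named pathway genes that were called. Blue points are the 3 LP-1 arrays, red points the 3 LP-1/Cfz arrays, and bars the mean and SD. FAS lies lowest, near -1.81, and TNFRSF1A highest, near 0.68. The genes were drawn because they were called, so the lack of overlap between groups in all 20 is no further evidence.

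The genes whose profile over the 6 arrays was most like that of CASP1 were found by the root mean square distance between log2 values, each taken as its difference from the gene's LP-1 mean. They were FTL, the light chain of the iron store ferritin, at a distance of 0.0418 and with a difference of -1.36, and then PLAAT3 at 0.055, SRBD1 at 0.0635, P2RY10 at 0.0663 and CD48, a surface protein of lymphocytes, at 0.0734. This distance mostly reflects the size of the group difference, on which CASP1 was selected, and shared control was not tested. Within a distance of 0.1 of CASP1 there were 13 genes. Around PYCARD there were 4465, with DHX16, RNPS1, VPS51, SMARCD2 and MLX nearest, so that nearness sets few genes apart there.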

How the data were processed

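The values the authors deposited are on a log2 scale and cover 54613 probe sets on 6 arrays, with 3 arrays for each of 2 groups. The submitters' notes name RMA, with no version. Values are centred per probe set on a baseline that no source used here states, so differences can be read and levels or signal over background cannot. The number of arrays limits the precision. Groups and replicate numbers came from the sample labels, no sample was left out, and no 2 arrays held identical values. The labels give 4% serum, while the paper's methods give another content.

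Probe sets were named through the platform annotation: 41091 name 1 gene, 1801 several and 11721 none. The groups were compared with limma 3.58.1 under R 4.3.3 (lmFit and eBayes, no covariate), over all probe sets and over 19775 genes, each the mean of its single-gene probe sets, with Benjamini-Hochberg adjustment and a threshold of 0.05. With 3 against 3 arrays an exact two-sided permutation test cannot give a p under 0.1.

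The members, the 8 pathway lists and the 5 marker lists were chosen with earlier results of these data known. The text names all members, up to 5 called genes per pathway list and direction, a fixed set of pathway genes (some of which are not reported here), called neighbours of both clusters and the 5 genes nearest to CASP1 and to PYCARD. Neighbours PDGFD, GRIA4, CASP12 and CARD18, NFKB1, NFKB2 and RELA, and the marker genes were named outside that rule, after their values had been seen. The housekeeping list had 1 gene of 10 measured that rose (PGK1, by 0.70). Promoters came from RefSeq tables on GRCh38.p14 and were aligned with Biopython 1.88; CASP1, CARD16 and CASP10 have no entry there.

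Alternatives were leaving out each array, quantile normalization, centring on array medians, array weights, a replicate block, robust eBayes, a minimum fold change of 1.2, single-gene probe sets alone, other summaries of a gene's probe sets, and means of linear values.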

Additional observations from a re-analysis of the deposited data

How the results depend on the processing

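Of the 8 member probe sets called lower, 7 were called in all 6 fits that left out an array, the exception being the CASP8 probe set 207686_s_at without LP-1 replicate 3. All 20 pathway genes named by the rule above that were called were called in these 6 fits too. They have the largest differences of their lists. The main fit called 22 pathway genes lower. In each of the 6 fits at least 1 of the other transcription factors that fell lost its call. Leaving out an array gave 7 to 9 member probe sets called lower and 0 higher, and 19 to 21 pathway genes lower and 4 to 5 higher. Over all probe sets it gave 2062 to 3081 lower and 1291 to 2356 higher in place of 3691 and 2323, and over all genes 1230 to 1755 lower and 823 to 1439 higher in place of 1984 and 1328. The probe set counts moved most without LP-1 replicate 1 (2162 and 1291), LP-1 replicate 2 (2219 and 1311) or LP-1 replicate 3 (2062 and 1333), and the higher count also without LP-1/Cfz replicate 1 (1495). Gene counts were 1277 lower and 823 higher without LP-1 replicate 1, 824 higher without LP-1 replicate 2, and 1230 lower and 850 higher without LP-1 replicate 3, with fewer arrays in each fit. Gene-level differences ranged over -1.43 to -1.38 for CASP1, -0.75 to -0.67 for CASP4, -0.058 to 0.020 for CASP5, -0.94 to -0.76 for CARD16, -0.17 to -0.13 for PYCARD, -0.24 to -0.16 for CASP8, 0.024 to 0.083 for CASP10 and 0.021 to 0.11 for CASP9.

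With a minimum fold change of 1.2, a stricter test by construction, all probe sets had 869 lower and 443 higher. All genes had 409 and 215, and the pathway lists 8 and 2. Of the member probe sets, 7 were called lower and 0 higher, with the call of the CASP8 probe set 207686_s_at lost. Named pathway genes that lost their call there were IFI16, CARD8, NAIP, SIGIRR, CASP6, XAF1, DIABLO, AIFM1, TNFAIP3 and IRF1. So did the transcription factors called lower beyond the 5 largest, NFKB1, NFKB2 and RELA among them. With quantile normalization CASP1 differed by -1.32 and CASP4 by -0.62, IRF1 by -0.20 and CASP6 by -0.29, both still called, and XIAP was called at 0.18. With the most variable probe set CARD8, NAIP and XAF1 differed by -0.65, -0.63 and -1.18. The members' differences with that probe set were -1.55 for CASP1, -1.30 for CASP4, -1.68 for CARD16, -0.43 for CASP8, 0.14 for CASP10 and -0.093 for CASP9, which is a different sign from its mean, with no call in either. With the median of the probe sets CASP8 differed by -0.29. The cause of these shifts is the choice of probe set for the last 2 settings and was not tested for the quantile setting. With the replicate number as a replicate block, 2815 probe sets were lower and 1729 higher, 1571 genes lower and 1070 higher, 8 member probe sets lower, and 20 and 4 pathway genes. The replicates share only a number: deviations from the group means correlated between same-numbered arrays at -0.049, 0.126 and -0.0056.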
